A study of Mus musculus with 36 samples.

Results

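Mouse lung pericyte-like cells that had been exposed for 6 h to lavage fluid from injured lungs were compared with the same kind of cells kept for 6 h in medium without lavage fluid. The libraries were chosen by their labels, as every library with injured bronchoalveolar lavage fluid (BALF) at 6 h and every media-only library at 6 h, which gave 12 of the 36 libraries of the study. The series asked how pericyte-like cells change their transcription in acute lung injury. It measured mRNA in 3 treatments (media only, uninjured or injured BALF), after 6 h or 24 h, in cells from both sexes, with 3 libraries in each combination.

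Injured BALF at 6 h was represented by 6 libraries, 3 from female and 3 from male cells, and media only at 6 h by another 6 with the same split. The lavage group received injured BALF mixed 1:1 with reduced-serum medium, and the control group received the same medium mixed 1:1 with phosphate-buffered saline. The comparison therefore holds both the addition of lavage fluid and the injury of the lungs it came from. Values for uninjured BALF at 6 h (6 libraries) are set beside it where they help. In every group the cells had been grown from lung digests, depleted of cells bearing CD31 (endothelial), CD45 (leukocyte) and CD326 (epithelial), selected for PDGFRβ and expanded on gelatin-coated plastic, so all of them are cultured cells. The labels give neither the kind of injury nor the strain, age or genotype of the mice. Nor do they tell whether replicates are separate animals or cultures, and each p-value below therefore sets a difference against the scatter of these libraries, which may be only technical.

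Pericytes are mural cells that wrap capillaries, and in the lung they help to keep the microvessels stable and closed to leaks. Injured lung fluid carries cytokines, proteins from plasma and fragments of damaged cells. Stromal cells sense such signals through Toll-like, interleukin-1 and tumour necrosis factor receptors, which free the transcription factor NF-κB from its inhibitors. NF-κB then switches on chemokines that call in leukocytes, and also the genes of its own inhibitors, which makes the response self-limiting.

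The 12 libraries held between 17134840 and 30158496 counts. Levels are given in CPM, each gene's share of its library after scaling by the trimmed mean of M values, and n is 6 libraries per group throughout. Replicates 1 and 2 of each sex and treatment lay close together, with a biological coefficient of variation of 6.32% to 8.34% between them, against 16.5% to 27.7% between either of them and replicate 3. The male injured replicate 3 stood apart from the other injured libraries. Its summed mesothelial markers (11 genes) were at 247 CPM against 33.9 to 78.6 CPM in the other 5 injured libraries, its Pdgfrb was the lowest of all at 256 CPM, and its Mki67, a proliferation marker, was at 67.0 CPM against 137 to 192 CPM. The male uninjured replicate 3 likewise had 279 CPM of mesothelial markers. The male media replicate 3 lay at the other end. Its mesothelial markers were at 21.3 CPM against 51.2 to 103 CPM in the other 5 media libraries, and its macrophage markers at 17.8 against 57.3 to 75.7 CPM. It is also 1 of the 4 libraries of the series whose description numbers begin differently, and what this marks is not stated. Counts of list members that moved by over 1.5 times without the male injured replicate 3 are given both ways below.

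PDGFRβ mRNA (Pdgfrb), the marker by which the cells were selected, was present in all 12 libraries. Summed over each group, the T-cell gene Cd3e and the haemoglobin gene Hbb-bs had 0 counts, the epithelial gene Epcam had 4 counts in injured and 1 in media libraries, and the leukocyte gene Ptprc (CD45) had 127 and 152. Summed epithelial markers (11 genes) were low but did not overlap, at 1.28 to 2.29 CPM in injured and 0.6 to 1.12 CPM in media libraries. Neutrophil markers (12 genes) overlapped, at 1.63 to 4.41 CPM in injured and 0.863 to 3.47 CPM in media libraries. Summed endothelial markers (11 genes) ran from 62.1 to 279 CPM in injured libraries and from 50 to 235 CPM in media libraries. These ranges overlapped with the sexes pooled, but not in female cells, at 129 to 162 CPM in injured and 211 to 235 CPM in media libraries. In male cells, replicates 1 and 2 were at 62.1 and 64.0 CPM in injured and 107 and 120 CPM in media libraries. Male replicate 3 went the other way, at 279 CPM in injured BALF and 50 CPM in media. Ptprb held the most counts of the endothelial markers, with 6488 over the injured and 12989 over the media libraries. The median log2 fold change of these 11 markers was 0.386, so a lower sum need not hold for each marker. Macrophage markers (12 genes) ran from 63.0 to 90.4 CPM in injured and from 17.8 to 75.7 CPM in media libraries. The part of these transcripts in the results below was not tested. In RNA from whole cultures, fewer cells of a type and less RNA per cell cannot be told apart.

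Of 15901 genes tested, 4011 (25.2%) differed between injured BALF and media at 6 h at an adjusted p under 0.05 (edgeR quasi-likelihood test, Benjamini-Hochberg). Of these, 2203 genes (13.9% of those tested) rose and 1808 (11.4%) fell, and with upper-quartile scaling the split was 1786 to 2286. A change of at least 2-fold was found for 546 genes that rose (3.43%) and 428 that fell (2.69%). All 6 injured libraries lay above all 6 media libraries for 1498 genes (9.42%) and below them for 933 (5.87%). The median log2 fold change over all genes tested was -0.00651, against which the medians of the gene lists below can be read. The plot of fold change against expression level places the genes named most often below among all genes tested.

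**Figure D1:**
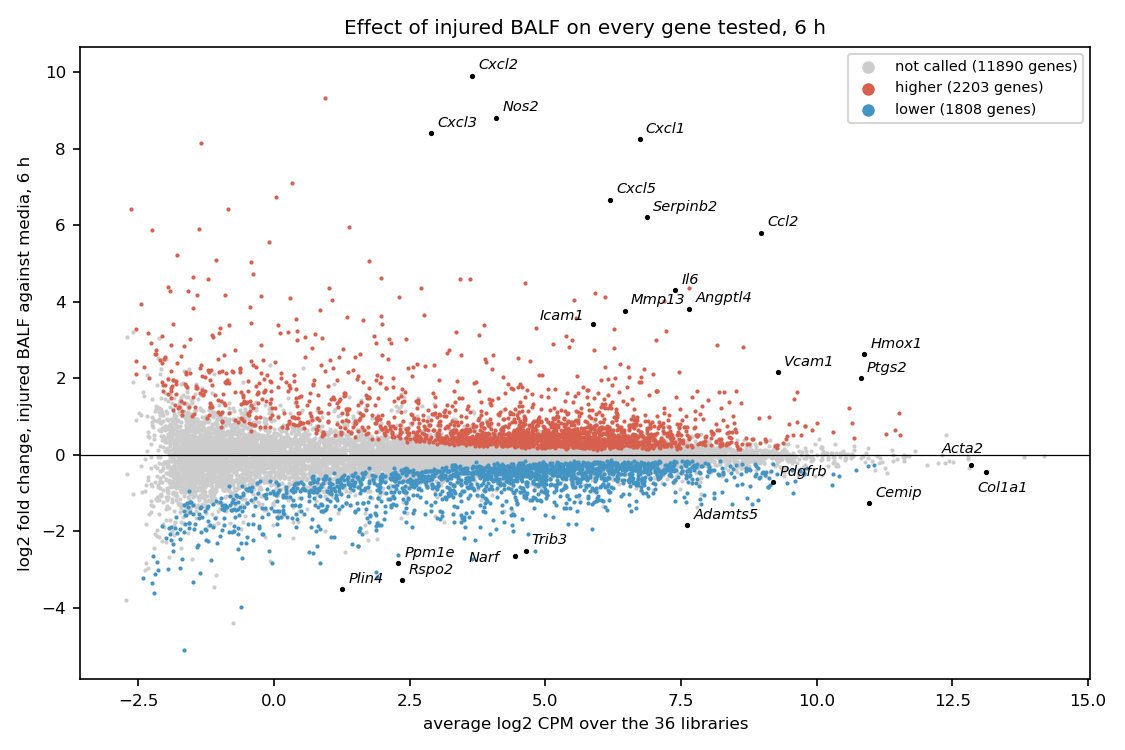
Log2 fold change of injured BALF against media at 6 h (vertical axis) against the average log2 CPM over all 36 libraries (horizontal axis), 1 point per gene, with genes at an adjusted p under 0.05 coloured by direction. Rises reach further than falls, with Cxcl2 at 9.91 and Rspo2 at -3.27.

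Chemokines, the secreted proteins that attract leukocytes, and colony-stimulating factors, which drive the making and survival of myeloid cells, made up the group with the largest rises. Of 16 tested, 14 rose and 1 fell, with a median log2 fold change of 4.43. The ligands of the neutrophil receptor CXCR2 went from almost nothing to abundant. Cxcl1 lay between 0.152 and 3.05 CPM (median 0.963) in media and between 324 and 555 CPM (median 373) in injured libraries. No media library came near an injured one for this gene, and its log2 fold change was 8.25 ± 0.93 (SE, edgeR adjusted p = 1.7e-07). Cxcl2 had 10 counts over the 6 media libraries, 2 of which had none, and ran from 38.4 to 95.8 CPM (median 61.5) in injured libraries. Its fitted log2 fold change was 9.91 ± 0.62 (edgeR adjusted p = 2.8e-12), a size that rests on very few counts in medium. Cxcl3, with 15 counts in media, ran from 26.7 to 39.0 CPM (median 30.6) after injured BALF. Cxcl5, the ligand that varied most among injured libraries, went from a median of 1.06 CPM to one of 101 CPM (38.9 to 256).

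Ligands for monocytes and lymphocytes rose as well. Ccl2, the main attractant of monocytes, stood at 15.1 to 41.6 CPM (median 31) in media and at 1397 to 2188 CPM (median 1611) in injured libraries. The groups were far apart, and the difference was 56.1-fold (log2 5.81 ± 0.44, edgeR adjusted p = 1.5e-10). Ccl7, a close relative of Ccl2, went from a median of 18.9 to 403 CPM, Ccl20, the ligand of CCR6 on dendritic cells and lymphocytes, from 2.81 to 62.0 CPM, and Cxcl10, a ligand of CXCR3, from 0.365 to 7.15 CPM. Csf3, which codes for the granulocyte factor G-CSF, went from a median of 0.358 to 11.1 CPM. Csf2, which codes for GM-CSF, had 3 counts over the 6 media libraries and lay between 6.08 and 12.6 CPM in all 6 injured ones. Csf1, the macrophage factor, was already at 2237 to 3599 CPM in medium and rose by only 0.51 ± 0.17 on the log2 scale (edgeR adjusted p = 0.029). Cxcl12, which retains stem cells and lymphocytes in tissues, was the member that fell, at -0.69 ± 0.23 (edgeR adjusted p = 0.027), and its groups overlapped. This call is uncertain: the list had no fall with replicates 1 and 2 summed, without replicate 1 or 2, or without any of 5 single libraries (female injured replicates 2 and 3, male injured replicate 3, and replicate 1 of female or male media). The membrane-bound chemokine Cx3cl1 did not pass the test, with medians of 39.4 and 54.1 CPM.

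**Figure D2:**
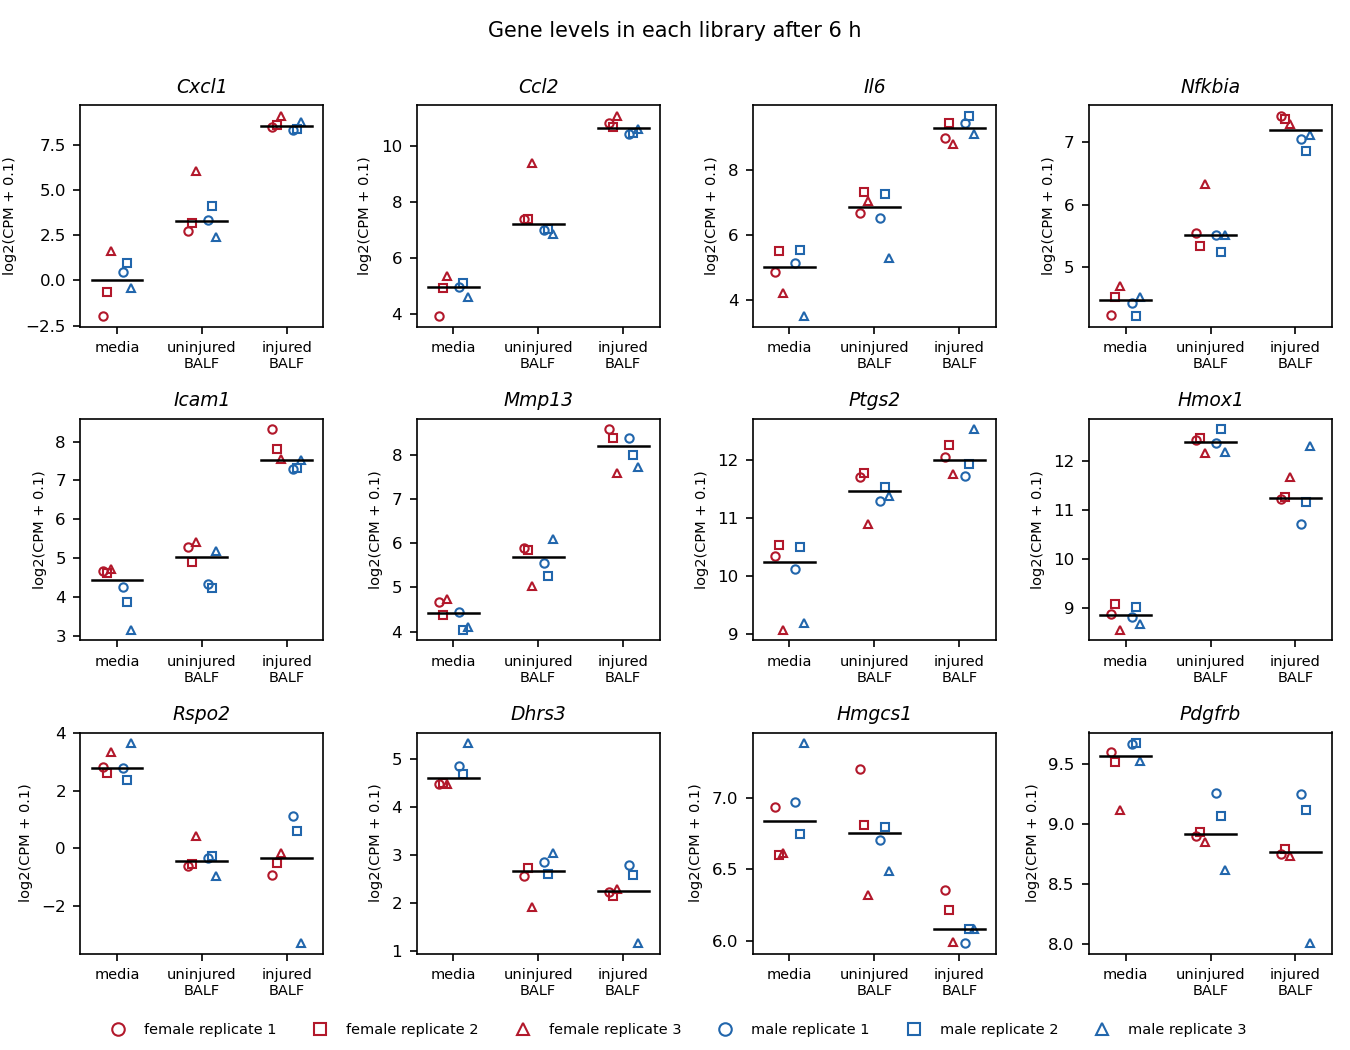
Level of 12 genes in each 6 h library on a log2(CPM + 0.1) axis. Each panel shows media only on the left, uninjured BALF in the middle and injured BALF on the right. Colour gives sex, shape gives replicate number and a line marks each group's median. For Cxcl1, Ccl2, Il6, Nfkbia, Icam1, Mmp13, Ptgs2 and Hmox1 all 6 injured points lie above all 6 media points, for Rspo2, Dhrs3 and Hmgcs1 below them, and for Pdgfrb the groups overlap.

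The promoters of the genes just described, and of 2 genes described next, can be read for the κB site that NF-κB binds. The sequences below are the RefSeq reference (GRCm38.p6) up to 250 bases before the annotated start, on the gene's strand, 5′ to 3′, and capitals mark matches to GGANTTTCC on either strand. The genes were picked by hand among the largest rises (Cxcl1, Cxcl2, Cxcl3) or as classic targets of NF-κB (Nfkbia, Icam1), and only windows with a match are shown. Ccl20, also among the largest rises, had no match in its window. The windows are Cxcl1 chr5:90890995-90891240 (+), Cxcl2 chr5:90903649-90903870 (+), Cxcl3 chr5:90785851-90786100 (+), Nfkbia chr12:55492648-55492897 (-) and Icam1 chr9:21015690-21015939 (+).
Cxcl1: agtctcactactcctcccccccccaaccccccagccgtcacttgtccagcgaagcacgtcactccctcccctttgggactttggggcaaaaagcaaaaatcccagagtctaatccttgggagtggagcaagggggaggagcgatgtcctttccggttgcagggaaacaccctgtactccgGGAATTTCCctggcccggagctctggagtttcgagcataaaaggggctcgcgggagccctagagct
Cxcl2: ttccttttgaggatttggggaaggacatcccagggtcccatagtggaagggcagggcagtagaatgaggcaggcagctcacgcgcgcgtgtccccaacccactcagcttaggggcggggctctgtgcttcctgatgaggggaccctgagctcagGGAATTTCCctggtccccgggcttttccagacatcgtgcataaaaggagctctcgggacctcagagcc
Cxcl3: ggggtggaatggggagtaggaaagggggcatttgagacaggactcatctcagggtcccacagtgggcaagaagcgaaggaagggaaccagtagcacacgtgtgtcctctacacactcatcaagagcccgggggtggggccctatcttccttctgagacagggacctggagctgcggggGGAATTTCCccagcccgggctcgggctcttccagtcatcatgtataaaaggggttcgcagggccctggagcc
Nfkbia: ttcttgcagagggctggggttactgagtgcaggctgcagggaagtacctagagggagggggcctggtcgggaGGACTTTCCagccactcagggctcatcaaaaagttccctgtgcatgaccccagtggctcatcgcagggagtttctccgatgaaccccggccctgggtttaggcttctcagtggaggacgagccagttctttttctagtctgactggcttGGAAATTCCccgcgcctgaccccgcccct
Icam1: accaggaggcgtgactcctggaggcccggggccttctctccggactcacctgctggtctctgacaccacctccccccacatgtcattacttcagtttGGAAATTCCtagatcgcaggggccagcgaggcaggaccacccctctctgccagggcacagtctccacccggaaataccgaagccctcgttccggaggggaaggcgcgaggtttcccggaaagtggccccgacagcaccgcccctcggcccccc
The 3 neutrophil chemokine genes lie in the same region of chromosome 5, and each has the same match, GGAATTTCC. It begins 70 (Cxcl1), 96 (Cxcl2) and 72 (Cxcl3) bases before the RefSeq start. Bases that belong to an exon of the gene in the GENCODE annotation are not shown. The Cxcl1 and Cxcl2 sequences therefore hold 246 and 222 bases and end short of that start, so these distances cannot be counted from their ends. Nfkbia has matches beginning 178 and 29 bases before its start, and Icam1 has 1 beginning 153 bases before its start.

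Over all 14183 promoter windows of 300 bases that belong to tested genes, 1.30% held this motif. Among the genes that rose at least 2-fold it was 26 of 467 windows (5.57%), and among those that fell at least 2-fold 0.739%. Of the chemokine and colony-stimulating factor genes, 5 of 10 windows in the RefSeq table held it, and of the NF-κB subunits and inhibitors 4 of 20 windows, which belong to 3 genes. A match is a description of the letters and not evidence of a bound site. The median GC content was 55.3% in windows of genes that rose at least 2-fold and 60.3% over windows of tested genes, and its part in these shares was not tested.

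Cytokines that act on many cell types rose in 9 of 10 cases and fell in 0, with a median log2 fold change of 3.22, and these counts were the same with replicates 1 and 2 summed and without any one replicate number. Il6, which drives the acute phase response, ran from 11.2 to 46.6 CPM (median 32.1) in media and from 447 to 811 CPM (median 623) in injured libraries. The ranges did not overlap (19.8-fold, log2 4.31 ± 0.45, edgeR adjusted p = 4e-08). Lif, a cytokine that signals through the same shared receptor chain as Il6, went from 16.3 to 52.4 CPM (median 33.8) to 380 to 678 CPM (median 570.0). Il11 and Clcf1, of the same family, rose by 2.55 ± 0.38 and by 1.09 ± 0.16 on the log2 scale (edgeR adjusted p = 1.2e-05 and 5.5e-06). The alarmins Il1a, Il33 and Tslp, which epithelial and stromal cells release on damage, were low in medium (medians 0.0756, 0.563 and 1.40 CPM) and reached medians of 5.49, 7.37 and 14.3 CPM. Il18 was at or under 0.687 CPM in all 12 libraries and did not pass the test.

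The NF-κB pathway itself rose as a whole at the mRNA level: 18 of 18 genes for its subunits, inhibitors and close regulators rose, with a median of 1.85, and for 17 of them the groups did not overlap. Nfkbia codes for IκBα, which holds NF-κB in the cytoplasm. Its level went from 18.5 to 26.0 CPM (median 22.1) in media to 116 to 172 CPM (median 147) after injured BALF, a 6.66-fold difference (log2 2.74 ± 0.18, edgeR adjusted p = 9.5e-12). Tnfaip3, which codes for the deubiquitinase A20 that shuts the pathway off, rose by 2.99 ± 0.32 (edgeR adjusted p = 6e-08). The A20-binding partners Tnip1 and Tnip3 and the inhibitor Nfkbie rose too, by 2.05, 3.40 and 2.34. Among the subunits, Nfkb1 (2.11), Relb (1.85) and Nfkb2 (1.78) rose by more than 3-fold, while Rel (0.41) and Rela (0.40) rose by less than 1.5-fold. Without any one replicate number, 16 to 17 of the 18 still rose.

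Brakes that act on mRNA and on signalling proteins were mixed. Of 14, 9 rose and 1 fell, with a median of 0.746, but with replicates 1 and 2 summed 6 rose and 0 fell, and the count was likewise 6 and 0 without the female media replicate 3. Zc3h12a, which codes for the RNase regnase-1 that cuts cytokine mRNAs, stood at 7.48 to 15 CPM (median 13.2) in media and at 76.2 to 117 CPM (median 113) in injured libraries (log2 3.11 ± 0.24, edgeR adjusted p = 2.7e-10). Its relative Zc3h12c rose by 0.93 ± 0.13 and Socs3, a feedback inhibitor of Il6-type receptors, by 1.26 ± 0.24 (edgeR adjusted p = 3e-06 and 0.00019). Zfp36, which codes for the mRNA-destabilizing protein tristetraprolin, did not pass the test, with medians of 53.9 and 42.3 CPM.

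Receptors that sense microbial products and cytokines rose in 13 of 22 cases and fell in 2 (median 0.517), or 8 and 0 with replicates 1 and 2 summed, and 6 and 1 without replicate 2. Tlr2, the receptor for bacterial lipoproteins, went from a median of 4.72 CPM (2.39 to 5.67) to 27.4 CPM (19.2 to 34.6), with no overlap (log2 2.62 ± 0.30, edgeR adjusted p = 2.8e-07). The lipopolysaccharide receptor Tlr4 was at medians of 33.6 and 33.4 CPM, and its partner Cd14, which is also a macrophage marker and the 1 of 12 such markers that rose, changed by 0.98 ± 0.20 (edgeR adjusted p = 0.00057). Among cytokine receptors, Il1r1, the receptor for interleukin-1, rose by 1.2 ± 0.28 and Il1rl1, the receptor for Il33, by 2.83 ± 0.63 (edgeR adjusted p = 0.0018 and 0.0013). Il1rl1 varied widely within each group and its groups overlapped, from 36 to 385 CPM in media and from 149 to 1784 CPM in injured libraries.

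In the family of tumour necrosis factor receptors, their adaptors and death regulators, 10 of 18 rose and 1 fell (median 0.516), or 6 and 1 with replicates 1 and 2 summed. Traf1, an adaptor, rose by 3.18 ± 0.43 from a median of 0.257 CPM, and Fas, the death receptor, by 1.18 ± 0.16 (edgeR adjusted p = 2.4e-06 and 2.7e-06). Cflar, which blocks the caspase at that receptor, rose by 0.95 ± 0.19, whereas Bcl2, which holds back mitochondrial cell death, fell by 0.91 ± 0.15 on the log2 scale (edgeR adjusted p = 0.00047 and 5.4e-05).

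Leukocyte adhesion molecules rose in 5 of 11 cases and fell in 0 (median 0.646), and the count of rises was 5 in every alternative run with a left-out library. Icam1, the ligand of leukocyte β2 integrins, ran from 8.76 to 26.3 CPM (median 21.6) in media and from 158 to 320.0 CPM (median 185) after injured BALF, 10.7-fold higher (log2 3.42 ± 0.21, edgeR adjusted p = 1.8e-12). Vcam1, the ligand of VLA-4 on monocytes and lymphocytes, went from 222 to 414 CPM (median 309) to 1043 to 1725 CPM (median 1363). Neither gene's groups overlapped. The selectins Selp and Sele, known mainly from endothelium, rose by 2.89 and 3.64, and the hyaluronan receptor Cd44 by 1.65. Of 11 endothelial markers 0 rose and 1, Kdr, fell (2 without the male injured replicate 3). The sums of these markers overlapped between the groups with the sexes pooled, but were lower after injured BALF in female cells, as given above. Ptprb held the most counts in these sums, and the median log2 fold change of the list was 0.386. Mcam, Alcam, Jam2 and Jam3 did not pass the test.

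Acute phase and innate defence genes rose in 8 of 13 cases and fell in 0 (median 2.51). Nos2, which codes for the inducible nitric oxide synthase, had 8 counts over the 6 media libraries and lay between 14.6 and 51.7 CPM (median 20.2) in injured ones (log2 8.81 ± 0.86, edgeR adjusted p = 1.4e-08). Saa3, the serum amyloid made outside the liver, went from a median of 2.88 to 27.6 CPM, Lcn2, which withholds iron from bacteria, from 1.07 to 9.48 CPM and Ptx3, a soluble pattern recognition protein, from 49.6 to 336 CPM. Serpina3g and Serpina3i also rose, but they belong to a cluster of near-identical genes, so that the split of reads between them is uncertain. Complement genes, by contrast, rose in 0 of 12 cases and fell in 2 (1 without the male or the female injured replicate 3), and C3 was at medians of 41.4 and 73.4 CPM without passing the test (log2 0.75 ± 0.60, edgeR adjusted p = 0.40).

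The share of interferon-stimulated genes that rose was near the 13.9% of all genes tested, while their median lay above that of all genes. Of 23, 3 rose and 0 fell, with a median of 0.704, and 10 were higher and 0 lower at an unadjusted p under 0.05 (edgeR). The count of rises was 4 with DESeq2, 6 without the female media replicate 3, 7 without replicate 3, 8 when the 12 libraries were fitted alone and 2 with replicates 1 and 2 summed. Gbp2, a guanylate-binding protein, went from 8.69 to 17.5 CPM (median 12.7) to 23.6 to 67.2 CPM (median 40.0), with no overlap (edgeR adjusted p = 5.2e-06). The classic type I interferon targets Ifit1 and Isg15 did not pass the test, at 1.32 ± 0.58 and 0.75 ± 0.55 on the log2 scale (edgeR adjusted p = 0.10 and 0.36). For antigen presentation by MHC class I, 5 of 11 genes rose, 3 with replicates 1 and 2 summed, 3 to 6 without single libraries and 0 without replicate 2, and B2m, the shared light chain, was at medians of 345 and 357 CPM.

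**Figure D3:**
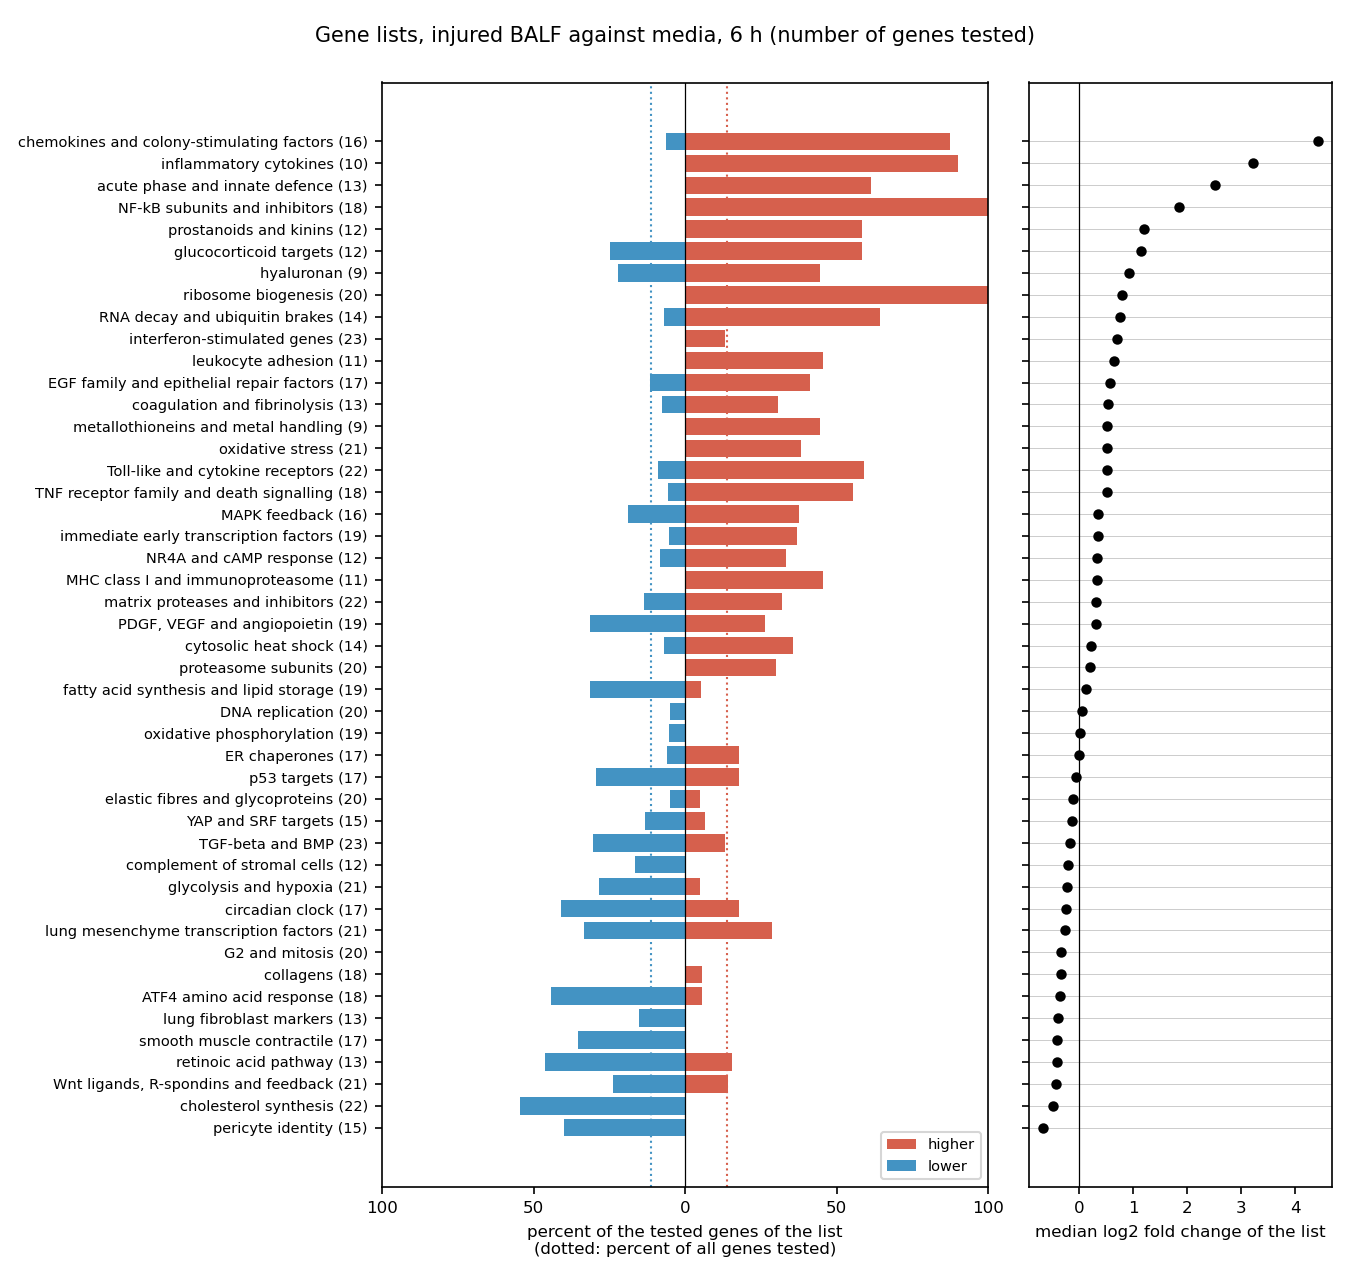
For each gene list, the percent of its tested members that rose and that fell at an adjusted p under 0.05 (left, dotted lines at the 13.9% and 11.4% over all genes) and the median log2 fold change of its members (right). Chemokines, cytokines, NF-κB and ribosome biogenesis lists lie far on the rising side and the cholesterol synthesis list on the falling side.

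Prostanoid and kinin genes rose in 7 of 12 cases and fell in 0 (median 1.19). Prostaglandins and bradykinin widen vessels, raise their permeability and cause pain and fever. Ptgs2, which codes for cyclooxygenase-2, was already at 537 to 1481 CPM (median 1214) in medium and reached 3401 to 5965 CPM (median 4104), with no overlap (4.01-fold, edgeR adjusted p = 0.00086). Ptges, the prostaglandin E synthase that works with it, rose by 2.37 ± 0.22 (edgeR adjusted p = 4.1e-09), and the constitutive cyclooxygenase Ptgs1 was at medians of 136 and 133 CPM. Both kinin receptors rose from under 1.2 CPM: Bdkrb1, the inducible one, to a median of 13.8 CPM (8.02 to 17.2) and Bdkrb2 to one of 3.29 CPM (1.74 to 6.30).

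Coagulation and fibrinolysis genes rose in 4 of 13 cases and fell in 1 (median 0.522), or 3 and 0 with replicates 1 and 2 summed. Serpinb2, the plasminogen activator inhibitor PAI-2, went from 3.19 to 30.1 CPM (median 4.29) to 418 to 733 CPM (median 539), 74.3-fold higher (log2 6.22 ± 0.54, edgeR adjusted p = 2.1e-09). The anticoagulant receptors Procr and Thbd rose by 2.04 ± 0.38 and 0.74 ± 0.22 (edgeR adjusted p = 0.00016 and 0.011), and tissue factor, F3, was at medians of 557 and 700.0 CPM without passing the test.

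Proteases of the extracellular matrix changed in both directions: of 22 proteases and inhibitors, 7 rose and 3 fell (median 0.316). Mmp13, a collagenase, stood at 16.3 to 26.6 CPM (median 21.2) in media and at 192 to 386 CPM (median 297) in injured libraries, 13.6-fold higher (log2 3.77 ± 0.43, edgeR adjusted p = 2.1e-07). Mmp10, a stromelysin, went from 5.64 to 10.6 CPM (median 9.46) to 63.5 to 232 CPM (median 147) and Mmp9, a gelatinase, from a median of 1.04 to 8.41 CPM. None of these 3 overlapped between groups. Timp1, an inhibitor of such proteases, rose by 1.24 ± 0.18, while Adamts5 and Adamts1, which cut aggrecan and versican, fell by 1.84 ± 0.17 and 0.97 ± 0.16 on the log2 scale (edgeR adjusted p = 7.6e-06, 7.8e-09 and 3.8e-05). Adamts5 went from 178 to 359 CPM (median 243) to 46.5 to 80.0 CPM (median 76.4).

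The 2 proteases with the largest rises hold a match to the AP-1 motif, which Fos and Jun proteins can bind, close to their start. Binding was not measured, and only windows with a match are shown. The windows below are Mmp13 chr9:7272264-7272513 (+) and Mmp10 chr9:7502092-7502341 (+), from the same RefSeq table, with matches to TGANTCA in capitals. They begin 35 bases before the start in Mmp13 and 63 before it in Mmp10.
Mmp13: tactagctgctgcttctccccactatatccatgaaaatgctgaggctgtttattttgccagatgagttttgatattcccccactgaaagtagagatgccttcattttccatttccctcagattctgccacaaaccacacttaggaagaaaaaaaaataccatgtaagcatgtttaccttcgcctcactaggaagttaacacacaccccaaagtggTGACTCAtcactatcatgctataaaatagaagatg
Mmp10: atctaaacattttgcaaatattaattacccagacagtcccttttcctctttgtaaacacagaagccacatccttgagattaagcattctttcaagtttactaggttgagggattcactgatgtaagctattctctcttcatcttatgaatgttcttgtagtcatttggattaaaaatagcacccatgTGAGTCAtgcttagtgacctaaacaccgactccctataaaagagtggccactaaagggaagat
This motif was held by 83 of 467 windows (17.8%) of genes that rose at least 2-fold, by 5.58% of windows of tested genes and by 5.91% of windows of genes that fell at least 2-fold. Over all windows of the RefSeq table, where the median GC content was 53%, the share was 7.79%. The part of GC content in these shares was not tested either. Of 19 immediate early transcription factors, 7 rose and 1 fell (median 0.338), and the counts were 4 and 2 without the female media replicate 3. Fosl1 rose by 1.52 ± 0.32 and Myc by 1.22 ± 0.25 (edgeR adjusted p = 0.00085 and 0.00051), Fos, Egr1 and Atf3 did not pass the test, and Klf4 fell from 49.6 to 85.6 CPM (median 74.6) to 27.1 to 31.8 CPM (median 29.6).

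Hyaluronan, a matrix sugar that swells in inflamed tissue, is made by the Has synthases and broken down by hyaluronidases. Of 9 genes of the list 4 rose and 2 fell (median 0.916). The synthase genes Has1 and Has2 rose by 3.04 ± 0.43 and 1.25 ± 0.36, and Cemip, which breaks hyaluronan down, fell from 2169 to 3519 CPM (median 2878) to 889 to 1306 CPM (median 1230.0), with no overlap (edgeR adjusted p = 5.7e-06, 0.010 and 1.3e-07). Hyal2, a hyaluronidase, rose by 0.69 ± 0.09 and Hyal1, another, fell by 0.93 ± 0.15 on the log2 scale (edgeR adjusted p = 7.1e-07 and 1.9e-05).

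Among collagen genes 1 of 18 rose and 0 fell, with a median of -0.345. The riser was Col5a3, a chain of the fibril-regulating collagen V, which went from 26.7 to 41.0 CPM (median 31.2) to 198 to 253 CPM (median 221), 6.89-fold higher (log2 2.78 ± 0.16, edgeR adjusted p = 1.4e-12). The main fibril collagens Col1a1, Col1a2 and Col3a1 were at -0.44 ± 0.20, -0.34 ± 0.19 and -0.35 ± 0.38 without passing the test (edgeR adjusted p = 0.11, 0.22 and 0.54). Of 20 elastic fibre and glycoprotein genes 1 rose, tenascin C (Tnc, 1.10 ± 0.24), a glycoprotein laid down in wounds, and 1 fell (0 without the male injured replicate 3).

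Growth factors for epithelium and vessels were among the rises. Of 17 EGF-family and epithelial repair genes, 7 rose and 2 fell (median 0.574), or 3 and 2 without replicate 1. Ereg, an EGF receptor ligand, ran from 66.4 to 176 CPM (median 129) in media and from 752 to 1093 CPM (median 937) in injured libraries, 7.29-fold higher (edgeR adjusted p = 3.5e-06). Hbegf, another such ligand, and Fgf7, a growth factor for alveolar epithelium, rose by 1.06 ± 0.30 and 1.15 ± 0.14 (edgeR adjusted p = 0.0087 and 8.6e-07), whereas Fgf10 and Igf1 fell by 1.15 ± 0.27 and 0.96 ± 0.24 on the log2 scale (edgeR adjusted p = 0.0023 and 0.0035). Of 19 PDGF, VEGF and angiopoietin genes, 5 rose and 6 fell (median 0.309), or 4 and 3 with replicates 1 and 2 summed. Pdgfb, the ligand of PDGFRβ that vessels use to recruit pericytes, went from a median of 2.10 CPM (0.851 to 2.96) to 24.2 CPM (12.3 to 49.4), while the receptor gene fell, as described below. Vegfa and Vegfc, growth factors for blood and lymph vessels, rose by 1.22 ± 0.20 and 2.08 ± 0.21 and Angptl4, a lipase inhibitor, by 3.82 ± 0.21 (edgeR adjusted p = 3.1e-05, 2e-08 and 3.2e-13).

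Feedback regulators of growth factor signalling rose in 6 of 16 cases and fell in 3 (median 0.35), or 4 and 1 with replicates 1 and 2 summed. Errfi1, an inhibitor of the EGF receptor, rose by 2.17 ± 0.34, and Spry1, an inhibitor of receptor tyrosine kinases, fell from 26.0 to 85.1 CPM (median 59.0) to 10.6 to 21.9 CPM (median 17.2) (edgeR adjusted p = 2.2e-05 and 1.1e-06). Of 12 genes of the NR4A and cAMP response list 4 rose and 1 fell (4 and 0 without the male injured replicate 3).

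In the TGF-β and BMP pathway 3 of 23 genes rose and 7 fell (median -0.182), or 3 and 5 with replicates 1 and 2 summed and 1 and 4 without replicate 2. Tgfb1 and Inhba, which codes for an activin subunit, rose by 1.03 ± 0.25 and 1.38 ± 0.34 (edgeR adjusted p = 0.0027 and 0.0031). Tgfb3 fell from 326 to 580.0 CPM (median 443) to 122 to 264 CPM (median 210.0), with no overlap (edgeR adjusted p = 0.00056). Bmp4 fell by 1.46 ± 0.28, and 2 genes that BMP signalling turns on, Id2 and Smad6, fell by 1.18 ± 0.21 and 1.28 ± 0.22 on the log2 scale (edgeR adjusted p = 0.00022, 9.5e-05 and 6.9e-05).

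Wnt and R-spondin genes rose in 3 of 21 cases and fell in 5 (median -0.441), or 2 and 4 with replicates 1 and 2 summed, 1 and 2 without replicate 2, and 1 and 5 without the male injured replicate 3. Rspo2, which codes for an R-spondin that amplifies Wnt signals, lay between 5.03 and 12.7 CPM (median 6.87) in media and between 0 and 2.08 CPM (median 0.694) after injured BALF. Its groups did not overlap and its fall was the largest among genes with an average of at least 2 on the log2 CPM scale (log2 -3.27 ± 0.51, edgeR adjusted p = 2e-05). The library without any Rspo2 count was the male injured replicate 3. Wnt4 fell by 1.98 ± 0.42 and Wnt11 rose by 1.44 ± 0.18 (edgeR adjusted p = 0.00075 and 7.7e-07), while the feedback gene Axin2, a common readout of the pathway, was at or under 0.779 CPM everywhere and did not pass the test.

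Retinoic acid, a vitamin A product that guides lung mesenchyme, is made by aldehyde dehydrogenases, and its own targets include Dhrs3 and Cyp26b1, which limit it. Of 13 genes of this pathway 2 rose and 6 fell (median -0.42), or 1 and 3 with replicates 1 and 2 summed. Dhrs3, which turns retinal back to retinol, went from 22.2 to 40.8 CPM (median 24.3) to 2.12 to 6.78 CPM (median 4.69), with no overlap (log2 -2.50 ± 0.33, edgeR adjusted p = 1.6e-06). Cyp26b1, which degrades retinoic acid, fell from a median of 33.1 CPM (21.9 to 80.0) to 8.08 CPM (1.37 to 23.9), with a slight overlap. The receptor gene Rarg fell by 0.62 ± 0.14 and Aldh1a3, a synthesizing enzyme, rose by 1.63 ± 0.27 (edgeR adjusted p = 0.0012 and 3.7e-05).

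Among markers of pericyte identity 0 of 15 rose and 6 fell (median -0.675). This count was 3 without the male injured replicate 3, 3 with replicates 1 and 2 summed and 0 without replicate 2. Pdgfrb ran from 556 to 820.0 CPM (median 757) in media and from 256 to 610.0 CPM (median 436) in injured libraries, so the groups overlapped (log2 -0.70 ± 0.16, edgeR adjusted p = 0.0018), and its fall did not pass the test without replicate 2. Cd248, which codes for endosialin, fell by 0.78 ± 0.21 on the log2 scale (edgeR adjusted p = 0.0070). Cspg4, which codes for the NG2 proteoglycan, Rgs5 and Des did not pass the test, at 0.40 ± 0.35, -0.25 ± 0.43 and 0.38 ± 0.43 (edgeR adjusted p = 0.45, 0.72 and 0.57). Summed over the list, the markers ran from 831 to 1350 CPM in injured and from 1150 to 1970 CPM in media libraries.

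Contractile genes of smooth muscle rose in 0 of 17 cases and fell in 6 (median -0.411), or 5 without the male injured replicate 3, 4 with replicates 1 and 2 summed and 3 without replicate 2. The 6 were Lmod1, Mylk, Synpo2, Myocd, Cnn2 and Vcl. Lmod1, which nucleates actin filaments, fell from 181 to 281 CPM (median 251) to 82.5 to 121 CPM (median 108), and Mylk, the myosin light chain kinase, from 236 to 293 CPM (median 276) to 77.6 to 172 CPM (median 141). Neither overlapped between groups (edgeR adjusted p = 7.7e-05 and 0.00034). Acta2, which codes for smooth muscle actin, was at 7146 to 11280 CPM in media and 5867 to 9692 CPM in injured libraries and did not pass the test (log2 -0.27 ± 0.18, edgeR adjusted p = 0.29).

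Of 21 transcription factors of the lung mesenchyme 6 rose and 7 fell (median -0.263), or 3 and 6 with replicates 1 and 2 summed and 1 and 3 without replicate 2. Osr1, a factor of the embryonic lung and kidney mesenchyme, fell from 38.8 to 49.8 CPM (median 43.8) to 10.9 to 23.0 CPM (median 18.3) (log2 -1.32 ± 0.12, edgeR adjusted p = 4.4e-09). Snai2 fell by 1.21 ± 0.22 on the log2 scale, whereas Zeb1, another repressor of the epithelial programme, rose by 0.51 ± 0.10 and Foxf1, needed for lung vessels, by 0.62 ± 0.10 (edgeR adjusted p = 0.00016, 0.00044 and 2e-05). Of 13 lung fibroblast markers 0 rose and 2 fell.

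Ribosome biogenesis was, beside the NF-κB list, the group in which every tested member rose: 20 of 20, with a median of 0.781, in 18 of them without overlap between groups. The count was 20 with upper-quartile scaling, with replicates 1 and 2 summed and without replicate 1 or 3, and 19 without replicate 2. Polr1b, a subunit of the polymerase that copies ribosomal RNA genes, went from 19.7 to 24.8 CPM (median 23.0) to 43.3 to 65.4 CPM (median 51.5) (2.30-fold, edgeR adjusted p = 3e-09). Dkc1, which modifies ribosomal RNA, rose by 1.13 ± 0.13 and the nucleolar proteins Nop56 and Ncl by 0.89 ± 0.13 and 0.52 ± 0.10 (edgeR adjusted p = 2.8e-07, 5.3e-06 and 0.00024). Genes of cell division did not follow: 0 of 20 genes of G2 and mitosis rose and 0 fell with edgeR, where 4 were lower at an unadjusted p under 0.05, 0 rose and 1 fell with DESeq2, and 0 of 20 replication genes rose and 1 fell. Mki67 was lowest in the male injured replicate 3, as given above.

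Cholesterol synthesis moved the other way: 0 of 22 genes rose and 12 fell, with a median of -0.49. The count was 12 without the male injured replicate 3, 10 with replicates 1 and 2 summed, and 7, 9 and 14 without replicates 1, 2 and 3. Hmgcs1, which makes the precursor of mevalonate, fell from 96.7 to 167 CPM (median 115) to 63.0 to 81.5 CPM (median 67.6), with no overlap (log2 -0.77 ± 0.13, edgeR adjusted p = 6.8e-05). Insig1, the sterol sensor partner, fell by 0.97 ± 0.12, Msmo1, a late enzyme, by 0.74 ± 0.13 and Fdft1, the squalene synthase, by 0.60 ± 0.11 on the log2 scale (edgeR adjusted p = 1.1e-06, 7.7e-05 and 0.00017). The sterol element TCACNCCAC was in 1 of 17 promoter windows of this list (5.88%) and in 1.14% of windows of tested genes.

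Genes of fatty acid synthesis and lipid storage rose in 1 of 19 cases and fell in 6 (median 0.128, so that the median and the calls point opposite ways). Scd2, a desaturase, went from 318 to 436 CPM (median 371) to 173 to 243 CPM (median 213) (edgeR adjusted p = 0.00017), and Lpin1, a phosphatidate phosphatase, fell by 1.70 ± 0.15 on the log2 scale (edgeR adjusted p = 2.5e-09). Plin2, the coat protein of lipid droplets, rose by 0.50 ± 0.17 (edgeR adjusted p = 0.029) and was the only rise of the list, which had 0 rises with upper-quartile scaling, without each replicate number and without the male injured replicate 3, while Plin4, of the same family, fell from a median of 2.93 CPM to one of 0.251 CPM.

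The amino acid response driven by ATF4 fell in 8 of 18 cases and rose in 1 (median -0.359), or 6 and 1 with replicates 1 and 2 summed. Trib3 went from 21.4 to 57.0 CPM (median 27.3) to 3.91 to 8.35 CPM (median 5.44), Chac1, which breaks down glutathione, from 18.4 to 29.3 CPM (median 23.7) to 4.21 to 8.61 CPM (median 5.37) and Ddit3, which codes for the stress factor CHOP, from 50.4 to 70.9 CPM (median 59.3) to 17.9 to 24.7 CPM (median 24.3). None of these 3 overlapped between the groups. The member that rose was Cebpb (1.34 ± 0.21), a factor that the acute phase response also uses.

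Glycolysis and hypoxia genes rose in 1 of 21 cases and fell in 6 (median -0.237), or 0 and 4 with replicates 1 and 2 summed and 0 and 3 without replicate 1. The falls were largest in targets of the hypoxia factor, Bnip3 (-1.46 ± 0.26), a mitophagy receptor, and Pdk1 (-1.22 ± 0.30), a brake on pyruvate use (edgeR adjusted p = 8.7e-05 and 0.0030). The enzymes Gapdh, Pkm and Ldha did not pass the test. Of 17 circadian clock genes 3 rose and 7 fell, or 1 and 4 with replicates 1 and 2 summed. Per1 rose by 0.93 ± 0.15 and Dbp fell by 1.70 ± 0.38 on the log2 scale (edgeR adjusted p = 3.1e-05 and 0.0013). Of 19 oxidative phosphorylation genes 0 rose and 1 fell (0 without the male injured replicate 3).

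Oxidative stress genes rose in 8 of 21 cases and fell in 0 (median 0.518), or 11 and 1 without the female media replicate 3. The counts were 6 and 0 with replicates 1 and 2 summed, without replicate 1 or 2, and without the male injured replicate 3. Hmox1, the haem oxygenase, went from 372 to 540.0 CPM (median 459) to 1679 to 5116 CPM (median 2419), 6.23-fold higher with no overlap (log2 2.64 ± 0.33, edgeR adjusted p = 7e-07). Slc7a11, the cystine importer, rose by 3.28 ± 0.61, Srxn1, which repairs peroxiredoxins, by 1.66 ± 0.32 and Sod2, the mitochondrial superoxide dismutase, by 1.47 ± 0.13 (edgeR adjusted p = 0.00019, 0.00028 and 3.5e-09). Nqo1, which the same antioxidant element is known to drive, did not pass the test (0.36 ± 0.41, edgeR adjusted p = 0.57). The element TGACNNNGC, which can overlap an AP-1 match, was in 7 of 24 promoter windows of this list (29.2%) and in 14.1% of windows of tested genes.

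Metal handling genes rose in 4 of 9 cases and fell in 0 (median 0.521), with the metallothionein genes Mt2 at 26.7 to 44.0 CPM (median 41.3) in media and 182 to 431 CPM (median 387) in injured libraries and Mt1 at medians of 63.0 and 194 CPM. Among 12 known glucocorticoid targets 7 rose and 3 fell (median 1.14). Sgk1 and Cebpd rose by 1.36 ± 0.22 and 2.29 ± 0.25 (edgeR adjusted p = 3e-05 and 1.1e-07). Tsc22d3 fell by 0.63 ± 0.13 on the log2 scale, and Fkbp5 was at medians of 50.4 and 53.7 CPM (edgeR adjusted p = 0.00075 and 0.69). A part of glucocorticoid signalling in these changes was not tested. Of 14 cytosolic heat shock genes 5 rose and 1 fell (3 and 1 without the male injured replicate 3, 8 rises with DESeq2), of 17 ER chaperone genes 3 and 1 (1 and 0 with replicates 1 and 2 summed), of 20 proteasome genes 6 and 0 (2 and 0 with upper-quartile scaling, without replicate 2 or without the male injured replicate 3) and of 17 p53 targets 3 and 5 (3 and 2 with replicates 1 and 2 summed).

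Beyond these lists, the largest rises by rule included Penk, which codes for proenkephalin, from a median of 1.00 CPM to 28.5 CPM, Steap4, a metalloreductase, from 0.492 to 14.5 CPM, Kcnn3, a calcium-activated potassium channel, from 0.857 to 19.6 CPM, and Olr1, a receptor for oxidized lipoprotein, from 13 to 225 CPM. In each of these 4 genes all injured libraries lay above all media libraries. The largest falls included Ppm1e, a phosphatase, from 9.46 to 1.15 CPM, Adra1d, an α1-adrenergic receptor, from 18.8 to 2.79 CPM, Tppp, from 10.7 to 1.67 CPM, and Npy1r, a receptor for neuropeptide Y, from 24.8 to 7.28 CPM, again with no overlap. Narf had the most certain fall of the genes named, from 22.9 to 31.2 CPM (median 25.5) to 2.96 to 5.13 CPM (median 4.22) (log2 -2.63 ± 0.13, edgeR adjusted p = 8.9e-14). Scgb1a1, which codes for the secretory protein of club cells, had 0 counts in all 6 media libraries and 40 counts over the 6 injured ones, at 0.214 to 0.416 CPM in each.

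Uninjured BALF at 6 h shows what lavage fluid without injury goes with. The comparisons of injured BALF with media, uninjured BALF with media and injured with uninjured BALF share libraries, so their values are given side by side and no overlap is drawn from them. Uninjured BALF against media changed 2923 genes (18.4%), with 10.6% of genes higher and 7.82% lower, and injured against uninjured BALF 546 (3.43%), with 1.97% higher and 1.46% lower. For Cxcl1 the log2 differences were 8.25 for injured against media, 3.73 for uninjured against media and 4.52 for injured against uninjured, and uninjured libraries ran from 5.19 to 67.1 CPM. For Icam1 they were 3.42, 0.69 and 2.73, and for Mmp13 3.77, 1.27 and 2.50. All of these passed the test (edgeR), so at these 3 genes uninjured libraries lay between the other groups.

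For other genes, among them Rspo2 and Pdgfrb, the difference between the fluids did not pass the test, which does not show equal levels. Rspo2 had log2 differences of -3.27 against media after injured and -3.49 after uninjured BALF, with 0.22 ± 0.55 between the fluids (edgeR adjusted p = 0.93). For Dhrs3 the fluids differed by -0.38 ± 0.33, for Aldh1a3 by -0.03 ± 0.26 and for Pdgfrb by -0.13 ± 0.16 (edgeR adjusted p = 0.71, 0.99 and 0.84). Ribosome biogenesis genes rose in 17 of 20 cases after uninjured BALF, with a median of 0.531 against 0.781 after injured BALF, and 0 of 20 differed between the fluids with edgeR, while 9 were higher and 0 lower with injured BALF at an unadjusted p under 0.05. Their summed level ran from 3420 to 4260 CPM in uninjured and from 4270 to 5240 CPM in injured libraries. These ranges nearly touched, and the sum was not tested. With uninjured BALF against media, cholesterol synthesis genes gave no called fall: 1 of 22 rose and 0 fell, while 11 of 22 were lower with injured than with uninjured BALF, and Hmgcs1 was at -0.15 ± 0.13 after uninjured BALF against media and at -0.62 ± 0.13 between the fluids (edgeR adjusted p = 0.49 and 0.0042).

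Some oxidative stress genes were higher with uninjured than with injured BALF. The list rose in 14 of 21 cases with uninjured BALF, and 5 of 21 were lower with injured than with uninjured BALF while 1 was higher. Srxn1 ran from 717 to 1013 CPM (median 779) in uninjured, from 210.0 to 650.0 CPM (median 236) in injured and from 88.5 to 150 CPM (median 95.0) in media libraries. The 3 groups did not overlap, and injured lay below uninjured by 1.33 ± 0.32 on the log2 scale (edgeR adjusted p = 0.013). Hmox1 ran from 4617 to 6466 CPM in uninjured libraries and overlapped with the injured ones (log2 -0.91 ± 0.31 between the fluids, edgeR adjusted p = 0.12). Of the cytosolic heat shock genes 11 of 14 rose with uninjured BALF, and 4 were lower and 0 higher with injured than with uninjured BALF.

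**Figure D4:**
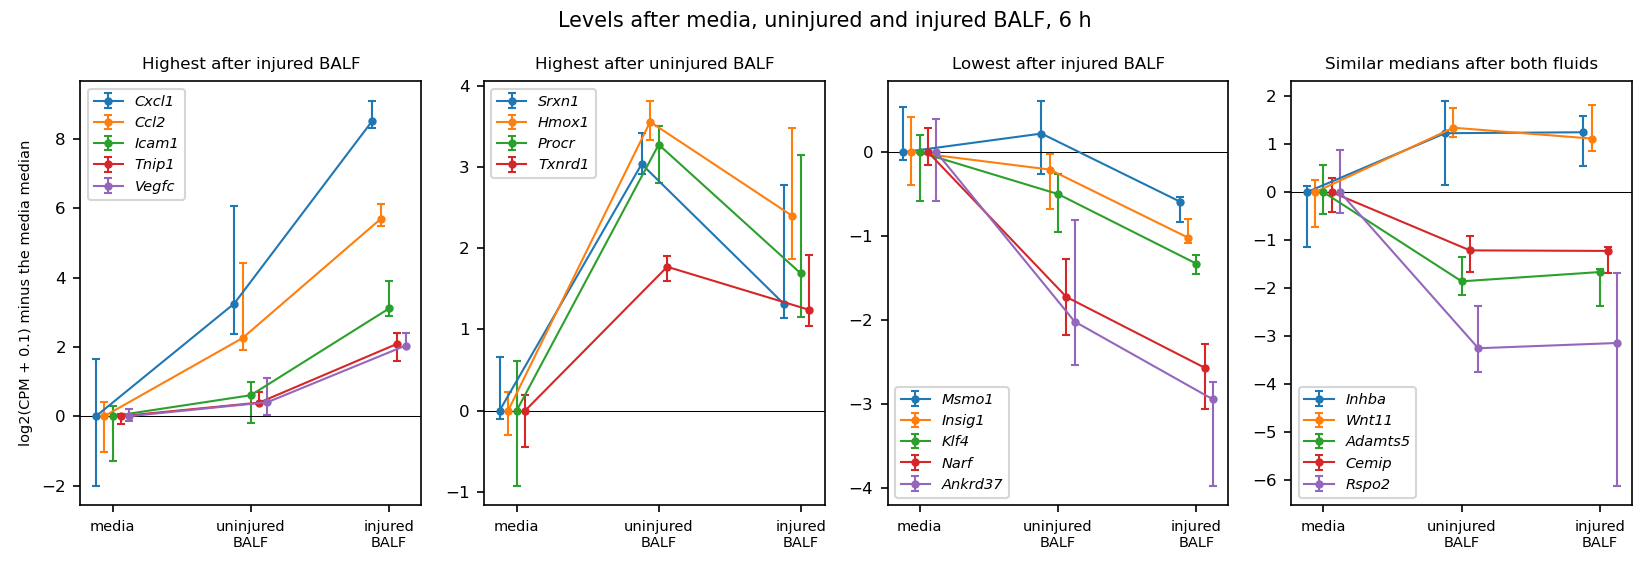
Log2(CPM + 0.1) minus the media median at 6 h for genes in media only, uninjured BALF and injured BALF, with points at group medians and bars from the lowest to the highest of 6 libraries. Panels group genes by the order of their medians only: in the second panel, Srxn1 passed the test between the fluids (adjusted p = 0.013) and Hmox1 (0.12), Procr (0.059) and Txnrd1 (0.52) did not.

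The effect of injured BALF at 6 h was then tested against its effect at 24 h, for which 12 other libraries were used. At 24 h 3774 genes (23.7%) differed from media, 11.5% higher and 12.2% lower. The difference between the effects passed the test for 414 genes (2.60%), of which 231 (1.45%) were higher and 183 (1.15%) lower at 6 h, and the count fell to 39 with replicates 1 and 2 summed, 18 without replicate 1 and 17 without replicate 2. The genes named here as differing were still called in all 5 alternatives that summed or left out replicates or libraries of a differing label series: Icam1, Col5a3, Narf, Insig1, Lpin1, Stard4, Idh1, Kdm3a and Ankrd37. Icam1 was at 3.42 at 6 h and 1.10 at 24 h, a difference of 2.32 (edgeR adjusted p = 1.3e-05), and Col5a3 at 2.78 and 0.96.

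The falls that were deeper at 6 h include metabolic genes. Insig1 was at -0.97 at 6 h and 0.44 at 24 h, Stard4, a sterol carrier, at -0.61 and 0.63, and Idh1, the cytosolic isocitrate dehydrogenase, at -0.65 and 0.47, so these 3 genes lay below media at 6 h and above it at 24 h, each passing the test at each time (edgeR). In the cholesterol synthesis list the 6 h count was 0 up and 12 down and the 24 h count 13 up and 0 down (6 and 0 with replicates 1 and 2 summed), and 14 of 22 members differed between the times, but only 3 with replicates 1 and 2 summed and 2 without replicate 1. Ankrd37 and Kdm3a, both targets of the hypoxia factor, were at -3.19 and -0.86 at 6 h and at 0.05 and 0.06 at 24 h. In the glycolysis and hypoxia list the 24 h count was 10 up and 0 down (6 and 0 with replicates 1 and 2 summed), and 5 of 21 members differed between the times, 1 with replicates 1 and 2 summed.

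Most of the inflammatory genes were not told apart between the times. Cxcl1 was at 8.25 and 5.63, Ccl2 at 5.81 and 4.57 and Il6 at 4.31 and 3.29, and the differences of 2.63, 1.24 and 1.02 did not pass the test (edgeR adjusted p = 0.22, 0.23 and 0.41), which does not show that the effects are alike. Of the NF-κB list 7 of 18 were higher at 6 h, but 3 with replicates 1 and 2 summed and 0 without replicate 1. Contractile genes fell in 6 of 17 cases at 6 h and in 15 of 17 at 24 h (4 and 12 with replicates 1 and 2 summed), but the effect differed between the times for 1 of 17 only, and for 0 with replicates 1 and 2 summed. At an unadjusted p under 0.05, 5 of 17 differed (edgeR). Pericyte markers fell in 6 and 7 of 15 cases. Of these markers 0 differed between the times, 4 at an unadjusted p under 0.05 (edgeR).

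**Figure D5:**
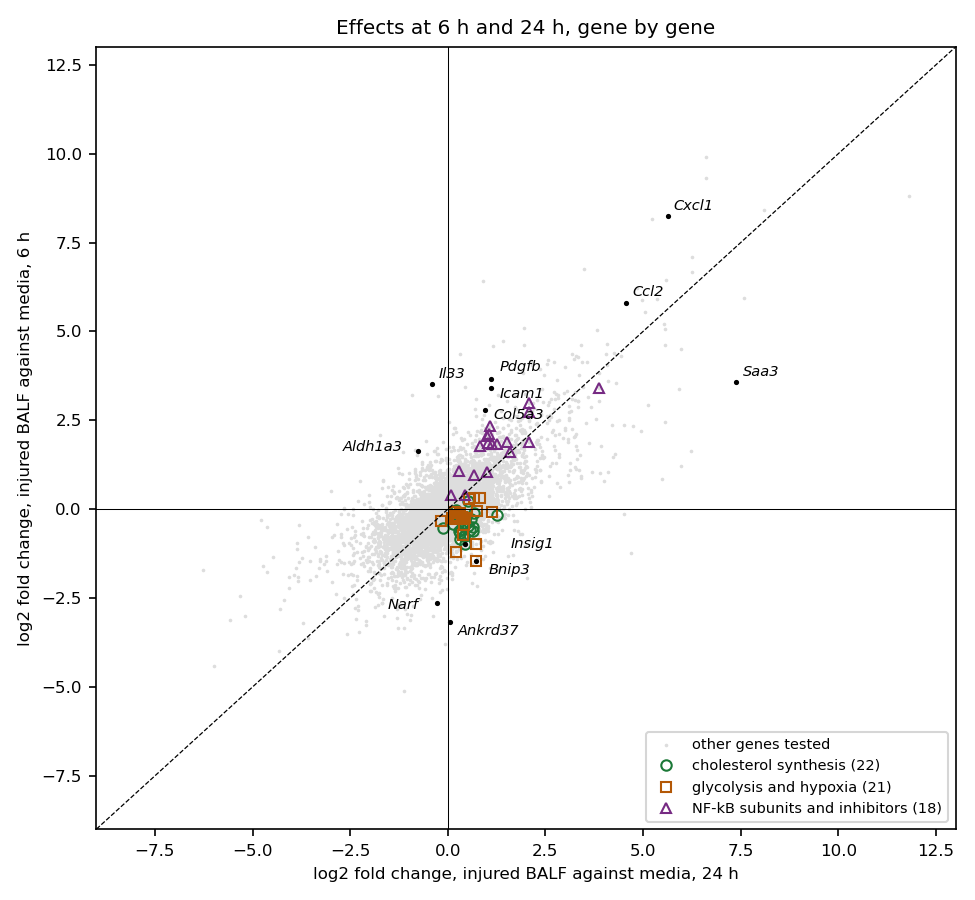
Log2 fold change of injured BALF against media at 24 h (horizontal axis) and at 6 h (vertical axis) for every gene tested, with the cholesterol synthesis, glycolysis and hypoxia, and NF-κB lists coloured and a line where the effects are equal. NF-κB genes lie above 0 at both times, and Insig1 and Bnip3 lie below 0 at 6 h and above 0 at 24 h.

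The sexes were tested apart and against each other. Injured BALF against media at 6 h changed 1863 genes (11.7%) in female and 1794 (11.3%) in male cells. The difference between the female and the male effect passed the test for 0 genes with edgeR and for 1 with DESeq2, and 244 genes had an unadjusted p under 0.05 (edgeR). With 3 libraries per sex and treatment, differences of moderate size could be missed.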

How the data were processed

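mRNA was sequenced from 36 libraries of cultured mouse lung pericyte-like cells, made with a stranded kit per the labels' protocols. The authors deposited a table of whole-number counts per gene for 48795 Ensembl identifiers, of which 48435 (99.3%) were matched to symbols. The submitters' processing notes name STAR 2.5.2b, RSEM 1.2.31, DESeq2 and the build GRCm38 without giving their roles, so the deposited counts may be rounded estimates in which reads of near-identical genes are shared out.

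From these counts, edgeR 4.0.16 (R 4.3.3) fitted quasi-likelihood models to the whole series of 36 libraries (12 groups, each a treatment in cells of 1 sex at 1 time), after filterByExpr and TMM scaling (factors 0.874 to 1.092). The common biological coefficient of variation was 22.5% and there were 24 residual degrees of freedom. The effect of injured BALF was the mean of the female and the male effect, and p-values were adjusted over all 15901 genes by Benjamini-Hochberg at 0.05. SEs were derived from the log2 fold change and its F statistic. The comparison was tested on simulated counts of 15374 genes, with 50 genes changed by each of 1.5, 2, 4 and 8 times. Of these edgeR called 34, 45, 48 and 50 and DESeq2 1.42.0 called 35, 46, 49 and 50, beside 4 and 15 false calls. The simulated libraries were drawn independently of each other, without the closeness of replicates 1 and 2, and far fewer genes were changed than were called here. These counts therefore cannot tell how many of the calls in the real libraries are false.

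Promoters and their coordinates came from RefSeq (GRCm38.p6). Genes were named by rule: the 15 largest rises and falls (average log2 CPM of at least 2), the 4 lowest p-values in each list and in each direction of the tests of differences, and 16 genes chosen by hand. List members beyond the rule are given with their test. Lists, members and alternatives were chosen with earlier results of these data known, and alternatives for list counts were added after seeing the data. They were DESeq2, other scalings and filters, a stricter threshold, a replicate block, left-out libraries and replicate numbers, and replicates 1 and 2 summed.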

Additional observations from a re-analysis of the deposited data

Results flagged for a closer look

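Among the 189 genes named by rule, the levels of each group of 6 libraries were checked for a library far from its group, by comparing the gap between the highest or lowest library and its nearest neighbour with the whole range. Of 378 groups, 35 (9.26%) had such a library by Dixon's 95% criterion, where chance alone flags about 1 in 20. The female media replicate 3 was the library in 16 of these cases, the male media replicate 3 in 7, the female injured replicate 3 in 5, the male injured replicate 3 in 4 and the female media replicate 1 in 3.

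The female media replicate 3 was the highest of its group for Serpinb2 (30.1 CPM), Ccl7 (47.8 CPM), Trib3 (57.0 CPM), Npy1r (45.6 CPM), Tslp (4.05 CPM), Il33 (1.43 CPM), Gbp5 (0.187 CPM), Slc7a11 (40.2 CPM), Ptges (57.2 CPM) and Psma6 (127 CPM). It was the lowest for Pdgfrb (556 CPM), Lmod1 (181 CPM), Vcl (1058 CPM), Loxl1 (304 CPM), Cd44 (282 CPM) and Aen (80.3 CPM). The male media replicate 3 was the highest for Tppp (18.1 CPM), Dhrs3 (40.8 CPM), Igsf10 (30.6 CPM), Hyal2 (38.7 CPM), Sdha (213 CPM), Bhlhe41 (15.2 CPM) and Epcam (0.0355 CPM), and the female media replicate 1 for Cxcl10 (1.02 CPM), Rsad2 (1.22 CPM) and Nip7 (36.2 CPM). The Epcam flag rests on 1 count.

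Among injured libraries, female replicate 3 was the highest for Ccl7 (842 CPM) and Ptges (271 CPM) and the lowest for Egfr (201 CPM), Cemip (889 CPM) and Ankrd37 (0.250 CPM). Male replicate 3 was the highest for Chac1 (8.61 CPM), Vegfc (81.2 CPM) and Procr (233 CPM) and the lowest for Mt2 (182 CPM).

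For 37 of the named genes the effect of injured BALF against media at 6 h differed from that at 24 h, by edgeR's test of the difference itself. The 6 h effect was the higher on the log2 scale for the cytokine genes Il33 (by 3.93) and Tslp (1.86), for the NF-κB genes Nfkb1 (1.06), Nfkb2 (0.95) and Tnip1 (1.06), for the adhesion genes Icam1 (2.32) and Vcam1 (0.86), and for Pdgfb (2.56), Aldh1a3 (2.39), Col5a3 (1.82), Wnt11 (1.5), Arsj (1.42), Jcad (0.81) and Foxf1 (0.53).

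It was the lower for lipid genes, with differences of -1.62 (Lpin1), -1.41 (Insig1), -1.24 (Stard4), -1.18 (Hmgcs1), -1.17 (Msmo1), -1.12 (Idh1) and -1.06 (Scd2). Genes of hypoxia and glycolysis gave -3.24 (Ankrd37), -2.19 (Bnip3), -1.71 (Slc16a3), -1.10 (Pfkl) and -0.92 (Kdm3a). Retinoic acid genes gave -2.09 (Dhrs3) and -1.76 (Rarb). The other genes gave -3.81 (Saa3), -2.36 (Narf), -1.66 (Gdf15), -1.31 (Chac1), -1.24 (Npy1r), -1.07 (Setbp1), -1.07 (Klf4), -0.84 (Cemip) and -0.79 (Bcl2). Of all these, Ankrd37, Col5a3, Icam1, Idh1, Insig1, Kdm3a, Lpin1, Narf and Stard4 were still called with replicates 1 and 2 summed, without each replicate number and without the 4 libraries of a differing label series.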

How the results depend on the processing

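The count of 4011 genes changed at 6 h was 4309 with DESeq2, 3988 and 4072 with RLE and upper-quartile scaling, 3274 without a filter on low counts, 3891 with a minimum of 1 CPM in 6 libraries, 2755 with replicates 1 and 2 summed and 3309 without the 4 libraries whose description numbers begin differently. It was 2446 at an adjusted p under 0.01. Leaving out single libraries or replicate numbers gave 1934 to 3711, with 2345 without replicate 1, 1934 without replicate 2 and 3392 without the male injured replicate 3. The lowest count without a single library was 3254, without the male media replicate 3. The count of 414 genes whose effect differed between 6 h and 24 h was 653 with DESeq2, 260 without a filter on low counts, 132 at an adjusted p under 0.01, 39 with replicates 1 and 2 summed, 222 without the 4 libraries of differing numbers, 239 without the female injured replicate 1, 18 without replicate 1 and 17 without replicate 2, over a range of 17 to 509 when libraries or replicate numbers were left out. The count of 0 genes that differed between the sexes was 1 with DESeq2. The cause of these shifts was not tested. Over the named genes, 4913 values kept their direction and call, 252 lost the call, 2 gained it and 1 changed sign. The change of sign was Lyz2, a macrophage gene that did not pass the test in either case, at 0.35 with all libraries, -0.03 without replicate 3 and up to 0.63 without replicate 2.

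With replicate number as a block the count at 6 h was 4614 and that of the difference between times 657. The numbers were not taken to pair the libraries: injured and media libraries of the same number deviated together in female cells (correlations of 0.613, 0.569 and 0.696, each the best for its number) but not in male cells (0.0638, 0.0615 and -0.104). Closeness of replicates 1 and 2 limits the precision: if they share a source, the spread is understated, and genes with few counts in medium have fold changes of uncertain size.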
